A study of Ginkgo biloba with 9 samples.

Results

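In leaves of Ginkgo biloba grown at 3 planting densities, 210 of 41309 listed genes were both well expressed and steady. A gene counted as steady when its highest and lowest values over the 9 libraries differed by less than 0.25 on the log2(FPKM + 1) scale, close to a 1.19-fold ratio, and as well expressed when its mean lay from 100 to under 1000 FPKM. FPKM count the sequenced fragments of a gene per kilobase of its length, after scaling for library size. These 210 genes made up 13.6% of the 1549 genes at that level. The genes were chosen by all 9 of their FPKM values, so the values below describe the genes and no difference between densities is tested on them.

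The leaves came from 2-year-old trees of the cultivar Fozhi in a nursery kept for leaf harvest. The control density (CK) was 20 plants per square metre, the moderate density (MD) 40 and the high density (HD) 80, with 3 libraries of total RNA at each. The labels do not say whether libraries of one density came from separate trees or from one pool, so the spread between them may be technical. The work was done to learn how planting density acts on leaf yield and on the compounds that the leaves accumulate.

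Ginkgo leaves are harvested for flavonoids and terpene lactones, and crowding changes the light, water and nutrients that each tree receives. Genes whose transcripts hold one level while such conditions change serve as internal references for quantitative PCR, where the signal of a responding gene is divided by theirs. Genes of the ribosome, the cytoskeleton, protein turnover and central metabolism are the usual candidates, though in many plants a good number of them do respond to conditions. The deposited table lists identifiers without gene names, so whether the 210 genes belong to these families was not analysed here, and the leaf label was not checked against leaf markers.

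The libraries held 14698121 to 22436182 reads in genes, a number that the steps between FPKM values give back. A steady gene had between 6162 and 321681 reads over the 9 libraries, with a median of 32543, and the lowest single value was 516 reads. In the other 1339 genes of 100 to under 1000 FPKM the median was 23117 reads. Counting error alone gives a standard deviation of 0.024 on the log2 scale for a steady gene of median depth in an average library.

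Across the steady genes the median range over the 9 libraries was 0.20 on the log2 scale, a highest-to-lowest ratio of 1.15, and the median coefficient of variation over all libraries was 4.8%. In the other genes at that level the median range was 0.49 and the coefficient of variation 12.9%. The rule sets this contrast, since it divides the genes of that level at a range of 0.25. Of the 210, 106 had a range under 0.2, 42 under 0.15 and 8 under 0.1. Just inside the limit stood Gb_02197 with a range of 0.249 and Gb_10951 with 0.249. Just outside stood Gb_20388 with 0.2503 and Gb_03750 with 0.251. The limits on the mean also ran through neighbouring genes: Gb_22969, with a range of 0.18, was left out at 99.98 FPKM, whereas Gb_27657 was kept at 101 FPKM. At the upper end the highest steady gene had 916 FPKM, and the next gene with so small a range had 1190.3 FPKM.

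**Figure D1:**
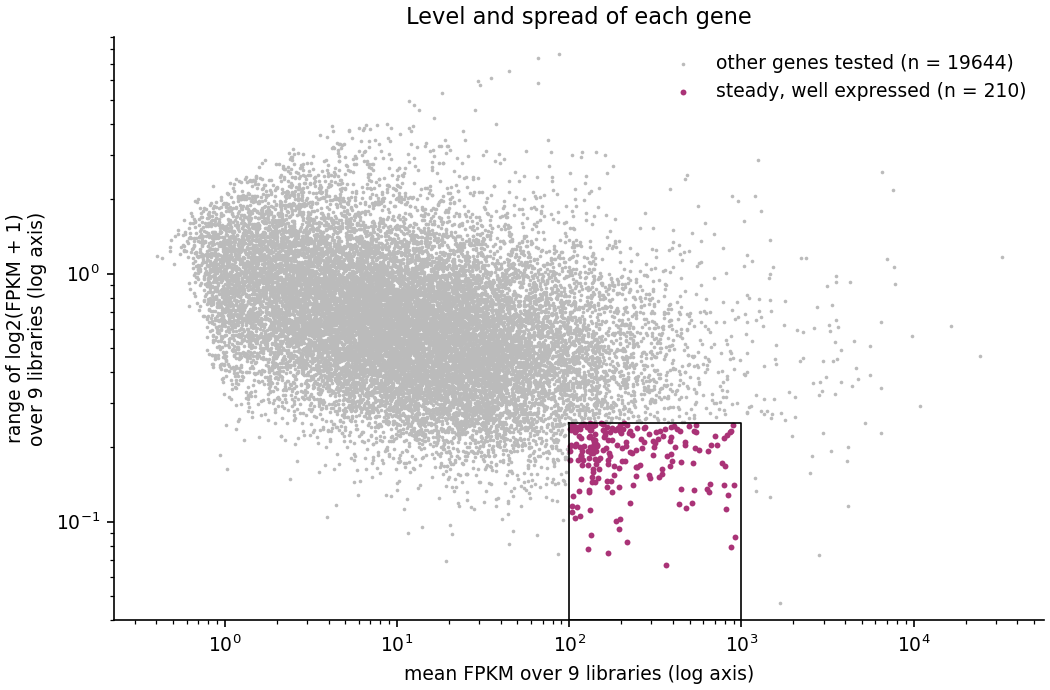
Mean FPKM over the 9 libraries (x axis, log) against the range of log2(FPKM + 1) over the same libraries (y axis, log) for 19854 genes. The 210 steady, well expressed genes are coloured and lie inside the box drawn at the limits of the rule, mostly towards its upper edge (median range 0.20); the other 19644 tested genes are grey.

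The share of genes with so small a range changed with the level. It was 1.54% of 8983 genes at 1 to under 10 FPKM, 6.13% of 5186 genes at 10 to under 30 FPKM, and 10.4% of 3414 genes at 30 to under 100 FPKM. Within the well expressed genes it was 13.2% at 100 to under 200 FPKM, 10.8% at 200 to under 300, 13.7% at 300 to under 500 and 22.2% at 500 to under 1000 FPKM. It was 13.3% in the 113 genes of 1000 FPKM or more. Read depth changed along with the level. The median over the 9 libraries was 785 reads at 1 to under 10 FPKM and 24255 at 100 to under 1000 FPKM. Level and counting error therefore cannot be told apart in these shares. The mean level of a steady gene had a median of 177 FPKM with quartiles at 132 and 332, beside 169 with quartiles at 125 and 276 in the other genes of 100 to under 1000 FPKM.

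The steady gene with the smallest range was Gb_04849, whose values were 357, 367 and 363 FPKM in CK, 369, 374 and 365 in MD and 368, 372 and 363 in HD. All 9 values lay within a 1.05-fold ratio, and the 3 densities overlapped. Its group means were 362.5 ± 4.81 FPKM for CK, 369 ± 4.77 for MD and 368 ± 4.28 for HD (SD, n = 3), from 145466 reads over the 9 libraries.

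The next 4 genes had ranges of 0.075 to 0.083. Gb_27281 had 170.2, 170.4 and 168 FPKM in CK, 169, 165 and 171 in MD and 163, 162 and 163 in HD. Its HD libraries lay below every other library, by a log2 difference of -0.060 from CK. Gb_23136 had 130.0, 129 and 132 FPKM in CK, 126, 125 and 126 in MD and 126, 129 and 128 in HD. There the MD libraries lay below all CK libraries, while HD overlapped with both. Gb_31181, at a much higher level, had 889, 848 and 845 FPKM in CK, 893, 872 and 885 in MD and 875, 866 and 873 in HD. The densities overlapped in each pair, and the CK libraries spread the most. Gb_37602 had 221, 221 and 222 FPKM in CK, 209, 213 and 210.4 in MD and 214, 220.5 and 217 in HD. In this gene all densities lay apart as deposited, CK highest and MD lowest, although the whole range was 0.083 on the log2 scale. None of these 4 genes was called between any of the densities in the limma test described below. Differences this small also move with the scaling of the libraries. As deposited, a small range therefore did not mean that the values of the densities were mixed.

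At the top of the level window, Gb_20154 had 890.1, 904 and 909.7 FPKM in CK, 902, 909 and 933 in MD and 945, 909 and 942 in HD. It combined the highest mean of the set, 916 FPKM, with a range of 0.087, and the densities overlapped. Next to it, Gb_41241 had 900.5, 926 and 956.5 FPKM in CK, 901, 913 and 904 in MD and 899, 868 and 900.0 in HD. Its HD libraries lay below those of CK and MD as deposited, but narrowly, with 900.0 FPKM in the highest HD library and 900.5 in the lowest CK library. No pair of densities was called for it in the limma test described below. The lowest mean was that of Gb_27657, with 105, 106 and 106 FPKM in CK, 98.0, 99.7 and 107 in MD and 93.6, 93.9 and 97.1 in HD. Its HD libraries lay below the rest. Gb_39100, the next lowest, had 97.5, 93.0 and 94.9 FPKM in CK, 104, 105 and 105 in MD and 105, 102 and 100.4 in HD, with CK below both denser plantings.

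Between these ends, Gb_06980, with a mean of 513 FPKM, had 516, 496 and 500.4 FPKM in CK, 493, 524 and 535 in MD and 525, 522.5 and 507 in HD, and the densities overlapped in every pair. Gb_35411, near 200 FPKM, likewise overlapped in every pair, with 201, 201 and 197 FPKM in CK, 217, 214 and 192 in MD and 201, 192.5 and 195 in HD. Gb_14227 and Gb_10197 showed a density pattern inside the limit. Gb_14227 had 491, 475 and 487 FPKM in CK, 547, 526 and 533 in MD and 469, 462 and 497 in HD, with MD above all other libraries. Gb_10197 had 221.5, 209.6 and 199.8 FPKM in CK, 200.2, 193 and 194 in MD and 189, 194 and 191 in HD, with HD below all CK libraries.

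The genes at the edge of the range limit showed what it lets in and keeps out. Gb_02197, just inside, had 155, 159.5 and 155 FPKM in CK, 165, 161 and 153 in MD and 139.8, 139 and 143 in HD. Its HD libraries lay below the others, which overlapped. Gb_10951, also inside, had 137, 137 and 129.8 FPKM in CK, 124, 121 and 119.9 in MD and 141, 143 and 138 in HD, with the 3 densities apart and MD lowest. Just outside, Gb_03750 had 379, 388 and 371 FPKM in CK, 344, 345 and 337 in MD and 402, 399.6 and 401 in HD, apart in the same order. Gb_20388, the other gene outside, had 167, 183 and 174 FPKM in CK, 169, 173 and 166 in MD and 153.5, 164 and 170.0 in HD, and its densities overlapped in every pair.

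Differences between densities within the set were small by the rule. The group means of a steady gene differed by a median of 1.05-fold between MD and CK, 1.05-fold between HD and CK and 1.05-fold between HD and MD. The largest such difference was 1.16-fold for MD against CK, 1.17-fold for HD against CK and 1.16-fold for HD against MD. More than a 1.1-fold difference was seen in 30, 40 and 25 of the 210 genes in these comparisons. In the other genes of the class the medians were 1.16-fold, 1.24-fold and 1.18-fold.

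The steady genes whose libraries of 2 densities lay fully apart made up a share near or under that over all genes tested, and under that of the other genes of the class. MD and CK libraries did not overlap in 103 of the 210 steady genes, or 49.0%, where 48.6% of all genes tested and 77.8% of the other genes of the class did not. MD lay above in 45 of them and below in 58, beside 23.9% and 24.7% of all genes. For HD and CK the count was 112, or 53.3%, beside 59.8% of all genes and 84.7% of the class, with HD above in 44 and below in 68, beside 29.6% and 30.1%. For HD and MD it was 102, or 48.6%, beside 53.1% and 80.6%, with HD above in 45 and below in 57, beside 26.2% and 26.9%. In 36 steady genes, or 17.1%, all 3 densities lay apart from each other, beside 22.6% of all genes tested and 54.2% of the other genes of the class. Every pair overlapped in 50, or 23.8%, beside 22.7% and 2.84%.

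The limma test was run over 19854 genes and called a gene at a Benjamini-Hochberg adjusted p under 0.05. Of the steady genes, 115 were called for a difference among any of the densities by the F test, beside 61.3% of all genes tested. In pairs, 64 were called between MD and CK (background 36.7%), 87 between HD and CK (background 52%) and 68 between HD and MD (background 43.1%). Since the rule used the same values, these counts are a description. Of the 210 genes, 79 were called in no pair, or 37.6%, beside 33.4% of all genes tested and 3.81% of the other genes of the class. Calls in 1 pair were made for 48, or 22.9%, beside 15.6% and 5.75%. Calls in 2 pairs were made for 78, or 37.1%, beside 36.8% and 46.4%, and calls in all 3 for 5, or 2.38%, beside 14.2% and 44.1%.

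Direction leaned to lower values at the higher density as deposited. MD was called higher than CK in 29 steady genes and lower in 35, beside 18% and 18.6% of all genes. HD was called higher than CK in 35 and lower in 52, beside 25.4% and 26.6%. HD was called higher than MD in 29 and lower in 39, beside 20.4% and 22.6%. Differences this small move with the scaling of the libraries, which sets one library's values against another's. When libraries were scaled by total reads, the HD against CK split became 80 higher and 9 lower, the MD against CK split 48 and 25, and the HD against MD split 58 and 15. Over all genes tested the same scaling gave 6377 higher and 4206 lower, 4102 and 3216, and 4940 and 3821, where the deposited values gave 5038 and 5286, 3576 and 3701, and 4059 and 4492. When every library was given the same sum of FPKM, the HD against CK split was 113 higher and 0 lower, that of HD against MD 109 and 2 and that of MD against CK 35 and 30. All genes tested then split into 7076 and 3804, 6273 and 3146, and 3738 and 3516 in these comparisons. Under quantile normalization, which gives each library one distribution of values, the splits for MD against CK, HD against CK and HD against MD were 42 and 25, 67 and 20, and 57 and 19, beside 3470 and 3706, 5002 and 5158, and 4273 and 4246 over all genes tested. Scaling by the upper quartile of the values gave 44 higher and 39 lower for HD against CK, 40 and 32 for HD against MD, and 30 and 33 for MD against CK. Over all genes tested it gave 5401 and 4978, 4432 and 4183, and 3612 and 3656. The larger side of the split of steady genes changed from lower to higher under each of these 4 scalings for HD against CK and HD against MD, and under 3 of them for MD against CK, where upper-quartile scaling left more genes lower.

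The median difference of the steady genes was -0.0075 on the log2 scale for MD minus CK, -0.025 for HD minus CK and -0.0085 for HD minus MD. Over all genes tested the medians were -0.00068, 0.0032 and 0.0051. In the other genes of 100 to under 1000 FPKM they were -0.024, -0.14 and -0.097. The whole spread of the steady genes, from -0.19 to 0.22 for HD minus CK, lay inside that of their class, which ran from -2.47 to 2.85. The rule fixes this, since a range under 0.25 keeps each such difference of a steady gene under 0.25 in size.

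**Figure D2:**
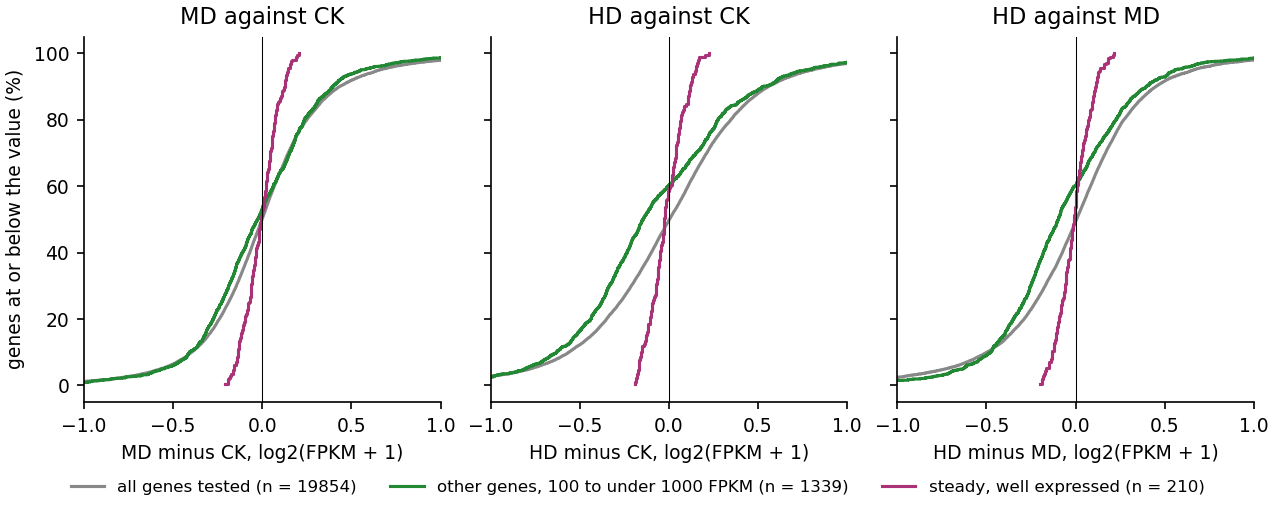
Cumulative share of genes (y axis, percent) at or below each difference of group means of log2(FPKM + 1) (x axis, cut at 1 on either side of 0) for each pair of densities. The steep curve is that of the 210 steady genes, which spans -0.21 to 0.21 for MD minus CK; the 1339 other genes of the class and all 19854 genes tested spread more widely.

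The 3 comparisons share libraries, each density entering 2 of them. Patterns of calls and orders of means were counted under the deposited scaling only, and they depend on it. With one summed FPKM, HD was called higher than CK in 113 steady genes and lower in 0. By the pattern of calls over the pairs as deposited, HD alone stood below both other densities in 21 steady genes, or 10%. This compares with 8.78% of all genes tested and 15.5% of the other genes of the class. HD stood above both others in 9, or 4.29%, beside 8.93% and 5.60%. CK alone stood above both others in 18 genes, or 8.57%, beside 6.66% and 8.74%, and below in 12, or 5.71%, beside 5.84% and 7.77%. MD alone stood above in 9, or 4.29%, beside 3.72% and 5.23%, and below in 9, beside 2.87% and 3.51%. By group means, whether called or not, the most frequent order was MD lowest and CK highest, in 46 genes. That was 21.9%, beside 11.4% of the other genes of the class. HD lowest and CK highest followed with 42 genes. The least frequent was MD lowest and HD highest, with 21 genes, or 10%, beside 9.86% of the class. Orders were not counted over all genes tested. A higher mean at each doubling was seen in 28 genes, or 13.3%, against 18.4% of the other genes of the class, and a lower mean at each doubling in 42, or 20%, against 32.0%.

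The largest differences from CK to HD inside the limit were those of 4 genes. Gb_28936 had 396, 399 and 396 FPKM in CK, 455, 456 and 447 in MD and 466, 464 and 462 in HD. As deposited the 3 densities were apart in order of density, with a log2 difference of 0.22 for HD minus CK. Most of it (0.19) was already present in MD, and HD and MD, 0.035 apart, were not called. Gb_14882 had 101, 100.1 and 102 FPKM in CK, 101, 104 and 98.8 in MD and 117, 115 and 117 in HD. Here CK and MD overlapped and the HD libraries lay above both, by 0.20 over CK.

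In the other direction, Gb_10529 had 202, 200.5 and 197 FPKM in CK, 204, 198 and 201 in MD and 173, 179 and 172.5 in HD. CK and MD overlapped, and HD lay below them, by -0.19 from CK. Gb_38813 had 110.2, 106 and 108 FPKM in CK, 105, 105 and 105 in MD and 95.5, 93.4 and 95.0 in HD. As deposited its libraries lay lower at each doubling without overlap. The MD minus CK difference was only -0.042, however, and that pair was not called. Its HD minus CK difference was also -0.19. Under the authors' scaling each of these 4 genes stayed within a 1.19-fold ratio over the 9 libraries.

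Where the remaining spread of a steady gene lay was described by the share of its total sum of squares that fell between densities. With 2 of 8 degrees of freedom between densities, groups that do not differ give a share of 25% on average, a mean and not a median. Since the rule used the same values, the shares are a description. The rule leaves out genes with large differences between densities, which favours a lower share than in the class. The median share was 71.8% in the steady genes, 73.9% in all genes tested and 94.3% in the other genes of the class. It was over 50% in 146 steady genes, or 69.5%, beside 71.7% of all genes tested and 96.0% of the class. It was over 75% in 100, or 47.6%, beside 48.7% and 85.8%, and under 25% in 23, or 11%, beside 11.8% and 1.42%.

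Gb_28936 had the largest share, 99.3%, and Gb_06427 the next, 98.9%. Gb_06427 had 423, 426 and 425 FPKM in CK, 434, 434 and 431 in MD and 384, 385 and 378 in HD. Its group means were 425 ± 1.95 FPKM for CK, 433 ± 1.62 for MD and 382 ± 4.02 for HD (SD, n = 3). As deposited, HD therefore lay below the rest by many times the spread within a density. With one summed FPKM the range of this gene over the 9 libraries fell from 0.20 to 0.087. At the other extreme Gb_15942 had a share of 0.064%, with 151, 153 and 166 FPKM in CK, 162, 145 and 162 in MD and 158.5, 149.8 and 159.5 in HD. Its group means, 156 ± 8.06 FPKM for CK, 156 ± 9.90 for MD and 156 ± 5.33 for HD (SD, n = 3), lay closer together than the libraries of any density. Gb_08937 was next with 3.27%, from 169, 160.0 and 164 FPKM in CK, 174, 158 and 166 in MD and 168, 164 and 160.2 in HD. Neither of these was among the 5 genes with the smallest range.

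**Figure D3:**
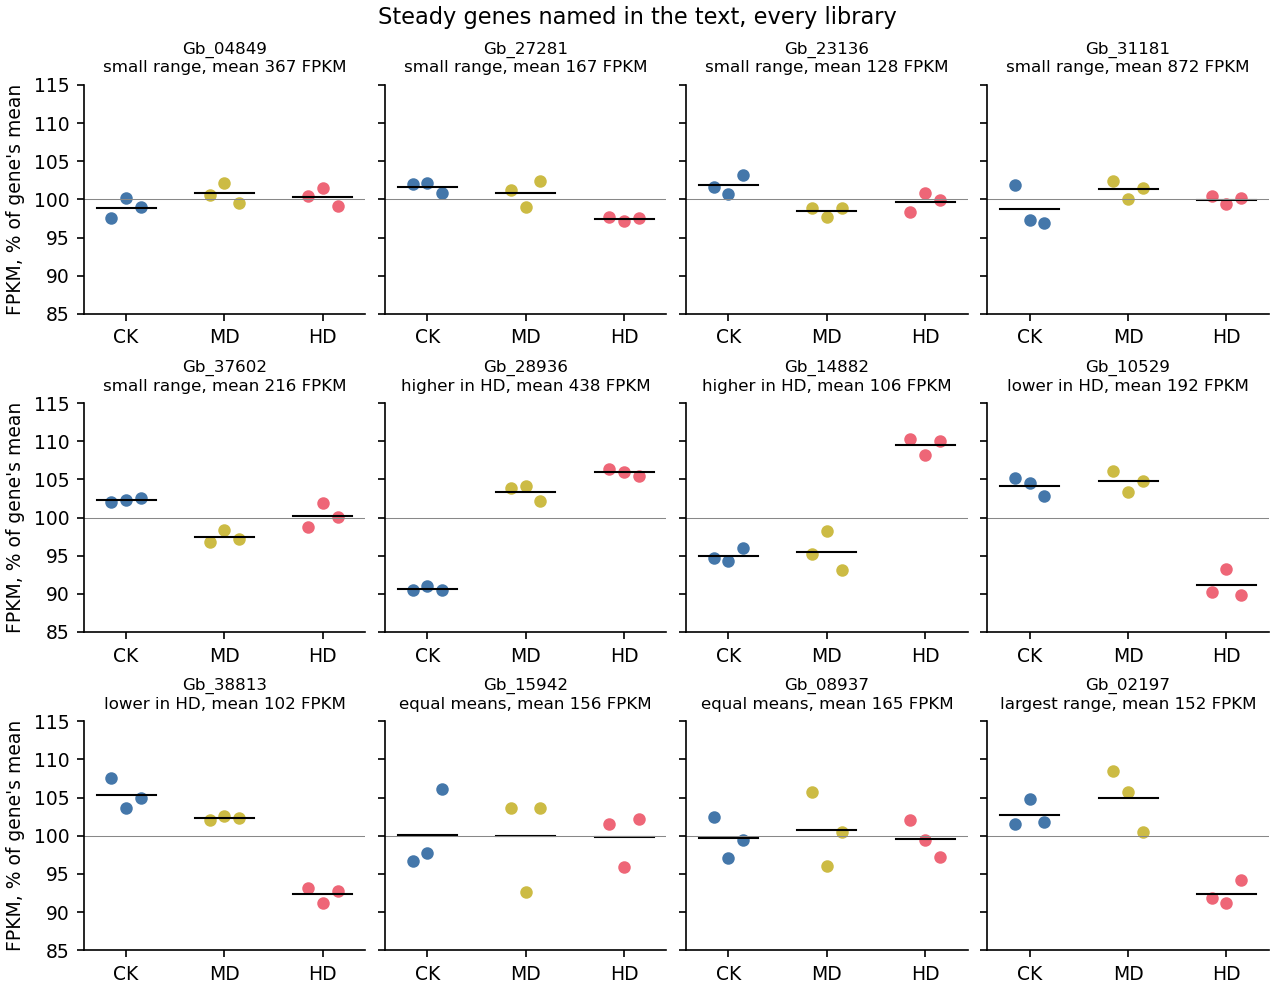
FPKM of 12 steady genes in every library, as percent of the gene's mean over the 9 libraries (y axis), by density (x axis); points are libraries and bars group means. The 5 genes of smallest range stay close to 100, Gb_28936, Gb_14882, Gb_10529 and Gb_38813 separate the HD libraries from those of CK, and Gb_15942 and Gb_08937 spread within a density around equal means.

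By library, the steady genes sat close together, which the rule favours. The median deviation from a gene's own mean ran from -0.016 in HD2 to 0.015 in CK2 on the log2 scale, while in the other genes of the class it ran from -0.080 in HD2 to 0.059 in CK2. CK libraries held the highest value of 86 steady genes, MD libraries of 70 and HD libraries of 54. The lowest value was in a CK library for 62 genes, in MD for 72 and in HD for 76. HD2 was the lowest library most often, for 35 genes, and CK1 and CK3 the highest most often, for 31 genes each. The highest and the lowest library belonged to the same density in 12 of the 210 genes, or 5.71%. By replicate number, libraries numbered 1, 2 and 3 held the highest value in 76, 54 and 80 genes and the lowest in 68, 75 and 67. Highest and lowest libraries were counted for the steady genes only, so no background share stands beside these counts.

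**Figure D4:**
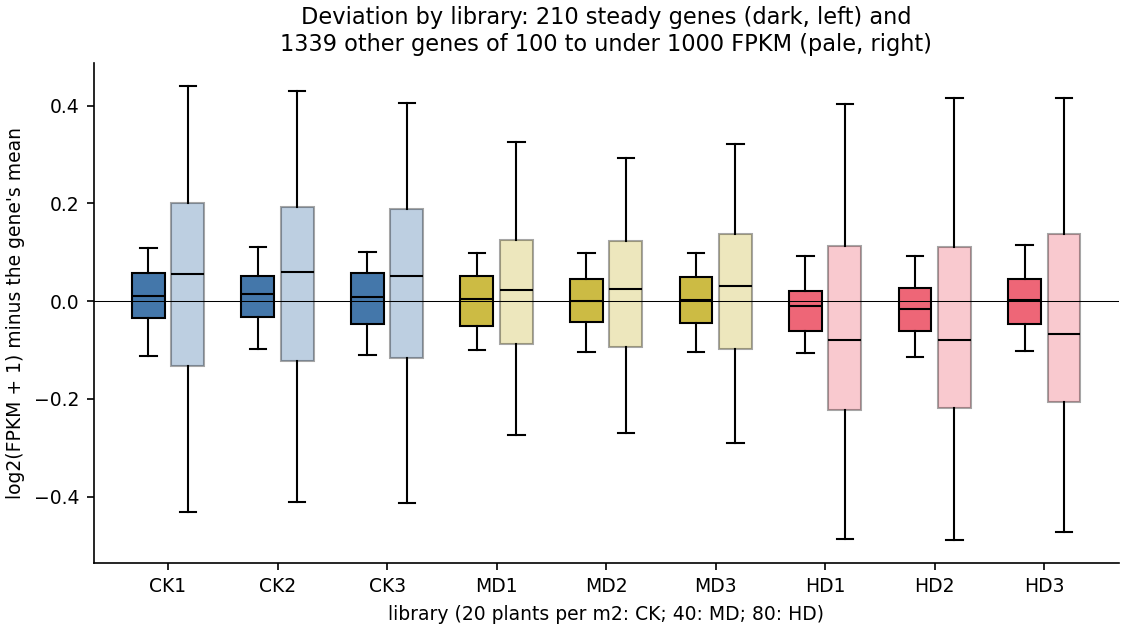
Deviation of log2(FPKM + 1) from each gene's mean (y axis) by library (x axis); boxes give the median and quartiles and whiskers the 5th and 95th percentiles over genes. The 210 steady genes (dark boxes) have medians between -0.016 and 0.015 in every library, and the 1339 other genes of the class (pale boxes) shift from 0.059 in CK2 to -0.080 in HD2. The rule keeps the deviations of the steady genes small.

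Summed over the 210 genes, the level averaged 56205 ± 158 FPKM for CK, 55926 ± 64.1 for MD and 55656 ± 411 for HD (SD, n = 3). The HD libraries overlapped with both others, from 55416 to 56130 FPKM. Of the summed FPKM of all genes this made 5.14% ± 0.0271 for CK, 5.16% ± 0.0112 for MD and 5.57% ± 0.0298 for HD. The HD shares lay above all others, and the sum over all genes was lower there, at 996238 to 1001236 FPKM against 1082067 to 1097979 in the other libraries. Counted in reads, the steady genes took 5.77% ± 0.0358 of all reads for CK, 5.85% ± 0.0224 for MD and 6.01% ± 0.0483 for HD, and the libraries of the 3 densities did not overlap in this share. The rule holds these genes level in FPKM, so their share of reads follows the library size behind the FPKM. That size was 0.972 to 0.988 times the recovered reads in CK, 0.999 to 1.006 in MD and 1.037 to 1.042 in HD. The order of the shares therefore describes the scaling and the rule.

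The libraries of one density varied less in the steady genes than in their class, which the rule favours. The median coefficient of variation was 2.31% among CK libraries, 2.34% among MD and 2.06% among HD libraries, against 3.35%, 2.83% and 3.36% in the other genes of 100 to under 1000 FPKM. Relative to counting error, the squared spread of read numbers within densities had a median of 2.49 times Poisson in the steady genes and 3.17 times in the others, and it was under 2 times in 72 of the 210.

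The share of steady genes was also counted by depth. The 1549 well expressed genes were divided into 4 groups of about equal size by their reads over the 9 libraries. The steady share was 5.67% in the group with the fewest reads, 14.0% and 12.9% in the next groups, and 21.7% in the group with the most. The recovered length had a median of 966.5 nt in the steady genes and 720.0 nt in the other genes of the class. At a given FPKM a longer gene has more reads and less counting error, so length and depth cannot be told apart here. Recovered lengths were whole multiples of 3 in 185 of the 210 genes, or 88.1%. The share was 87.1% over the 17129 genes with 20 reads or more in every library.

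Within one density, steadiness was common. Of the 1549 genes of 100 to under 1000 FPKM, 1475 had a range under 0.25 over the 3 CK libraries, 1506 over the MD libraries and 1501 over the HD libraries, and 1419 met the limit within each density. Over 9 libraries 210 remained. A range over 9 values exceeds one over 3 even without a density difference. Of the 1339 genes outside the set, 1209 met the limit within each density and exceeded it when the densities were put together, and 130 exceeded it within at least one density. Over the 6 libraries of a pair of densities, 651 genes met the limit for CK with MD, 601 for MD with HD and 435 for CK with HD. The steady set was 32.3%, 34.9% and 48.3% of these.

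Which genes counted as steady depended on how the libraries were scaled to each other, more than their number did. The rule was met by 211 genes under upper-quartile scaling, of which 188 were among the 210, and by 230 under quantile normalization, of which 162 were. Total-read scaling gave 229 genes with 154 of the 210, and scaling to one summed FPKM gave 241 with 126. A gene met the rule under the deposited and all 4 other scalings in 121 cases, 57.6% of the 210. Under at least 1 of these scalings the rule was met by 347 genes.

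The 121 genes differed from the remaining steady genes in direction as deposited. Their median HD minus CK difference was -0.071 on the log2 scale, and HD had the lower mean in 102 of them. In the other steady genes the median was 0.061, and 22 had the lower mean in HD. Scaling by total reads or summed FPKM raises the HD values, so genes slightly lower in HD come closer together and genes slightly higher leave the set. The 5 genes of smallest range all stayed within the 121. Gb_27281 had ranges of 0.052 to 0.10 over the 5 scalings, while the range of Gb_04849 went from 0.067 as deposited to 0.19 with one summed FPKM. Gb_28936 and Gb_14882, higher in HD, met the rule as deposited and under no other scaling, with ranges of 0.26 to 0.37. Gb_10529 and Gb_38813, lower in HD, met it under each, with ranges down to 0.12 and 0.10.

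**Figure D5:**
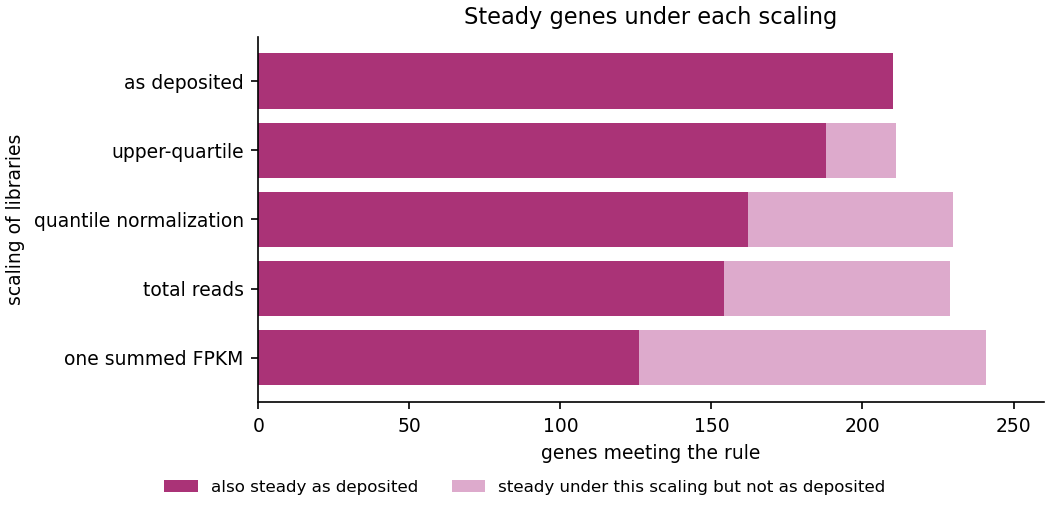
Number of genes that met the rule (x axis) under the deposited scaling and 4 other scalings of the libraries (y axis); dark bars are genes that are also steady as deposited, pale bars genes that are not. The number stays between 210 and 241, while the dark part falls from 210 to 126.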

How the data were processed

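Per the file headers, the authors deposited FPKM for every gene in each library. CASAVA 1.8, TopHat2 and RSEM appear in the submitters' processing notes, with no role stated. Genome build, annotation and scaling method were not given in the sources used here. Each of the 9 columns of values carried the name of one sample, and 0 columns were left over. The genes and comparisons were chosen with earlier results of these data known. Genes named are those with the smallest and largest ranges, the highest and lowest means, the largest differences from CK to HD, the largest and smallest shares of spread between densities, and means nearest 100, 200 and 500 FPKM.

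Whole reads were recovered from FPKM steps: relative depths came from low genes with equal read numbers (384 to 532 genes per pair), and 21602 of 21602 genes with no zero value gave whole numbers to within 0.01 reads. Gene lengths followed from the value of 1 read, as whole nucleotides. The library sizes behind the deposited FPKM were 0.972 to 1.04 times the recovered totals, so the authors' scaling differs from division by total reads. Values set against Poisson cover counting error only.

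Differences between densities were fitted with limma (version 3.58.1; R 4.3.3) using an intensity trend, on log2 of FPKM plus 1, over the 19854 genes that reached 1 FPKM in 3 or more libraries, without a replicate block. The fit, the rule and the read recovery were tested on simulated data. The changes planted for the fit were all larger than any difference between group means of a steady gene. Calls at differences as small as those of the steady genes were therefore not covered. Alternatives were other pseudocounts, filters, scalings, range limits, robust variance estimates, a replicate block, limma-voom, and the removal of libraries.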

Additional observations from a re-analysis of the deposited data

How the results depend on the processing

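Total-read scaling, limma-voom and the joint removal of the libraries numbered 3 were chosen after seeing the data. The number of steady genes was 106 with a range limit of 0.2 and 353 with 0.3, and 221 to 250 without one library. It was 309 without the 3 libraries numbered 3. Of 160 recomputed counts of called genes, 159 stayed within 1.5 times; the exception was HD against MD with one summed FPKM, with 111 steady genes called in place of 68. Leaving out single libraries gave 50 to 61 steady genes called for MD against CK, 63 to 84 for HD against CK, 53 to 69 for HD against MD and 100 to 110 by the F test, and 6201 to 7275, 9315 to 10268, 7429 to 8467 and 11238 to 11623 of all genes tested. In place of 115, the F test called 89 steady genes without the libraries numbered 3, 132 with limma-voom and 147 with one summed FPKM. Of all genes tested it called 9978, 13129 and 12846 in these settings, in place of 12175.

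Median log2 differences of the steady genes (for MD against CK, HD against CK and HD against MD in turn) were 0.0048, 0.10 and 0.11 with one summed FPKM, 0.028, 0.063 and 0.044 under total-read scaling, and 0.024, 0.046 and 0.030 under quantile normalization. Upper-quartile scaling gave -0.0053, 0.00048 and 0.014. The scaling factors of the first, second and last of these raise HD against CK by construction, and the median of all genes tested for HD minus CK moved to 0.12 with one summed FPKM. For quantile normalization the cause was not tested. Without one library the medians were -0.013 to -0.0051, -0.025 to -0.019 and -0.016 to -0.0043, and -0.015 for HD minus MD without the libraries numbered 3. The median share of spread between densities was 74.5% under quantile normalization, 73.5% under upper-quartile scaling, 81.6% with one summed FPKM, 74.5% under total-read scaling and 71.9% to 77.0% without one library.

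With a replicate block, 68, 90 and 72 steady genes were called for MD against CK, HD against CK and HD against MD and 122 by the F test, and 7307, 10270, 8520 and 12082 of all genes. Deviations of equal replicate numbers correlated between -0.0069 and 0.073 over all genes tested (unequal numbers -0.052 to 0.043). Over the steady genes they correlated between -0.081 and 0.29, with a median of 0.127, and unequal numbers between -0.309 and 0.249, with a median of -0.070. Among equal numbers the steady genes' highest values were 0.290 for MD and HD and 0.262 for CK and HD, both of number 3. Number 3 of CK and MD gave 0.133, as did number 2. Over all genes tested the highest values were also those of number 3, at 0.073 for MD and HD, 0.057 for CK and MD and 0.057 for CK and HD. Not every pair exceeded 0.1 in either set, so the numbers were not treated as pairs. This cutoff does not address an effect shared by number 3 alone, and the cause of these values was not tested.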

Other observations

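A further 167 genes of 100 to under 1000 FPKM exceeded the range limit of 0.25 through 1 library alone, in that their other 8 libraries met it. By library, CK1 accounted for 40 such genes, HD3 for 35, MD3 for 31 and MD2, with the fewest, for 11; a gene can count under more than 1 library. Below the level window, 356 genes of 30 to under 100 FPKM and 318 of 10 to under 30 FPKM had a range under the limit, and above it 15 of the 113 genes of 1000 FPKM or more did.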
